A study of Mus musculus with 48 samples.

Results

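The genes described here encode subunits of the mitochondrial respiratory chain that are made from nuclear genes. They were chosen by name: every gene whose symbol in the array annotation begins with Ndufa, Ndufb, Ndufc, Ndufs, Ndufv, Sdh, Uqcr, Cox4, Cox5, Cox6, Cox7 or Cox8, without Ndufa4l2 and the Ndufaf assembly factors. Of 20738 genes on the array, 69 met this rule. Subunits make up 66 of them, with 36 in complex I, 4 in complex II, 8 in complex III and 18 in complex IV. The other 3 are not subunits: Emc8, which the annotation lists under an older name beginning with Cox4, and the complex II assembly factors Sdhaf1 and Sdhaf2. Their values are given apart. Each gene is represented by its brightest array feature, judged by the mean over all 48 arrays.

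RNA was measured in cultured cells of C57Bl/6J mice, which the series describes as 8 animals. Alveolar epithelial type II cells (AECII), the surfactant-secreting cells of the lung's air sacs, were grown in DMEM with 10% serum. Pulmonary artery smooth muscle cells (PASMC), the contractile cells of the arterial wall, were grown in smooth muscle medium with 15% serum and used at passage 1. Each cell type was left as a control, labelled room air, or exposed for 24 h to 15% e-cigarette vapour extract from a liquid with 0 or 18 mg/ml nicotine, labelled smoke. The 6 groups hold 8 arrays each. AECII were exposed 24 h after isolation, so the cell types differ in medium, serum and time in culture as well as in identity, and these cannot be told apart. The labels number the arrays of a group but do not tie the numbers to animals, so the p-values measure the spread between arrays.

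The respiratory chain passes electrons from NADH and succinate to oxygen through complexes set in the inner mitochondrial membrane, and complexes I, III and IV pump protons as they do so. Complex I and complex IV combine catalytic core subunits with many accessory subunits that hold the enzyme together, and several complex IV subunits exist as a broadly made form and a form restricted to muscle, testis or lung. Type II cells are known for a mitochondria-rich cytoplasm that supports surfactant synthesis, and pulmonary artery muscle for oxygen sensing in which complex IV isoforms have been implicated.

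Promoter sequence is shown first for complex IV isoforms, since the widest contrasts between the cell types lay among them. The RefSeq promoter table for the mouse build GRCm38.p6 held 54 of the 66 subunits. Each window below is the 250 bases before the transcription start, read in the direction of the gene, with capitals marking a match to any of 3 motifs searched on both strands: GCGCA, any base and GCGC for NRF1 (nuclear respiratory factor 1, a regulator of respiratory genes), CCGGAAG for ETS factors such as the GA-binding protein, and ATGGCGGC for YY1. A match on the opposite strand appears as its reverse complement. Cox6a1, Cox6b1 and Cox7a2 are the broad forms, and Cox6b2 and Cox7a1 are restricted forms. The windows lie at chr5:115348959-115349208 on the minus strand for Cox6a1, chr7:30626115-30626364 on the minus strand for Cox6b1, chr7:4753095-4753344 on the minus strand for Cox6b2, chr7:30183921-30184170 on the plus strand for Cox7a1 and chr9:79759854-79760103 on the minus strand for Cox7a2.
Cox6a1: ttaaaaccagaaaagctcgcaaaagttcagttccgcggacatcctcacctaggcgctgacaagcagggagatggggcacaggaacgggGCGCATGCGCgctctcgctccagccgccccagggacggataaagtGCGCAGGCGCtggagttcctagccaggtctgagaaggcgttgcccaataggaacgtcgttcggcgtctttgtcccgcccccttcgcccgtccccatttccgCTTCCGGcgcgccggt
Cox6b1: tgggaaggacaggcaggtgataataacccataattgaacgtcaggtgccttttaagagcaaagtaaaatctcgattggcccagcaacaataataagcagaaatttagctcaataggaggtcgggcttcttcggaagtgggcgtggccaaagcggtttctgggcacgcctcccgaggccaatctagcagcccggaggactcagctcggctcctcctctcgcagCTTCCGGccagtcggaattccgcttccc
Cox6b2: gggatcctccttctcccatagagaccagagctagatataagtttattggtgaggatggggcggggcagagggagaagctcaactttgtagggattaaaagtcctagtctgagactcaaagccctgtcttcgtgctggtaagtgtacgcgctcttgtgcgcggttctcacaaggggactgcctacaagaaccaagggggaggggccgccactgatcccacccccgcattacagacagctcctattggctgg
Cox7a1: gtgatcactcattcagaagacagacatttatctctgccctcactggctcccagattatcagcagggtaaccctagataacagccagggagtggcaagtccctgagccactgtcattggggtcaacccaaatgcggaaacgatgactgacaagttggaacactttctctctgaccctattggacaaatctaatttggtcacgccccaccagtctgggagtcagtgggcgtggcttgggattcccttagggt
Cox7a2: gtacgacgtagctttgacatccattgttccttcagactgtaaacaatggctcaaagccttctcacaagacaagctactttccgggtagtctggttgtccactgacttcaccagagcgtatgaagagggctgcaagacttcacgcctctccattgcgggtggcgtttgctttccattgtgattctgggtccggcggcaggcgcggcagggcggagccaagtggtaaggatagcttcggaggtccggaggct

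The Cox6a1 window held 2 NRF1 matches and 1 ETS match, and the Cox6b1 window held 1 ETS match. No motif matched in the windows of Cox6b2, Cox7a1 or Cox7a2, which says only that these letters do not occur there. The windows also differed in CG dinucleotides, with 26 in Cox6a1, 14 in Cox6b1 and Cox7a2, 8 in Cox6b2 and 4 in Cox7a1. Over the full window of 250 bases before to 50 after the start, 11 of the 54 subunits (20.4%) held an NRF1 match, against 7.17% of 17491 protein-coding genes. ETS matches occurred in 11 subunits (20.4%, against 12.9%) and YY1 matches in 6 (11.1%, against 3.50%). At least 1 of the 3 motifs was present in 25 subunits (46.3%, against 20.9%), and more than 1 kind in 3 (5.56%, against 2.64%). Overlapping matches were counted for each motif.

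Values are deposited log2 intensities, on which the median feature of every array lay between 2.97 and 2.98 and the upper quartile at 5.78. A dim feature is therefore one near 3, and no detection calls were used here. All 5 epithelial and 8 of 9 tested type II markers were higher in AECII (Etv5 was lower), and all 10 smooth muscle and 6 fibroblast markers were lower in AECII. Sftpa1 in PASMC, and Lmod1 and Synpo2 in AECII, averaged below the filter on low values used for testing (2.73). They passed it through the arrays of the other cell type, so their calls add no support. Airway cell markers, which the labels do not name, were also higher in AECII: at control Scgb1a1, the club cell secretoglobin, averaged 15.73 against 3.76 in PASMC, Scgb3a1 averaged 9.83 against 2.77, and Foxj1, of ciliated cells, 6.11 against 3.04. Of 8 macrophage markers, Marco was lower in AECII by −2.51 and Cd14 higher by 1.12. AECII arrays had 7.26 to 8.04 as their mean over the smooth muscle list at control, against 9.51 to 10.80 in PASMC. Within that list Acta2 averaged 11.71 and Tagln 12.83 in control AECII, while 3 of the 10 genes averaged under 4 there. Among PASMC arrays, 3 control, 4 nicotine-free and 4 nicotine-containing cultures had Sftpc, the surfactant protein C message, above 6, with a control range of 1.72 to 11.28. The part of these other cell types in the results was not tested, and values without the PASMC arrays with high Sftpc are given where they change a call. In RNA pooled over a culture, fewer cells of a type and less RNA per cell cannot be told apart.

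In control cultures the respiratory chain was unevenly divided between the cell types. Differences are AECII minus PASMC on the log2 scale, tested with limma over 14775 genes and called at an adjusted p (Benjamini-Hochberg) under 0.05. Of the 63 subunits that passed the filter on low values, 36 were lower in AECII, 8 were higher and 19 were not called. The background was wide: 59.2% of all genes tested were called, 31.3% lower and 27.9% higher. The median subunit difference was −0.22, beside −0.04 over all genes tested, and single subunits ranged from −4.36 to 0.99. In 18 of the 63 subunits the 8 AECII arrays and the 8 PASMC arrays did not overlap: 11 in complex I, 1 in complex II, 1 in complex III and 5 in complex IV. That share, 28.6%, is near the 28% of all genes tested whose groups did not overlap.

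**Figure D1:**
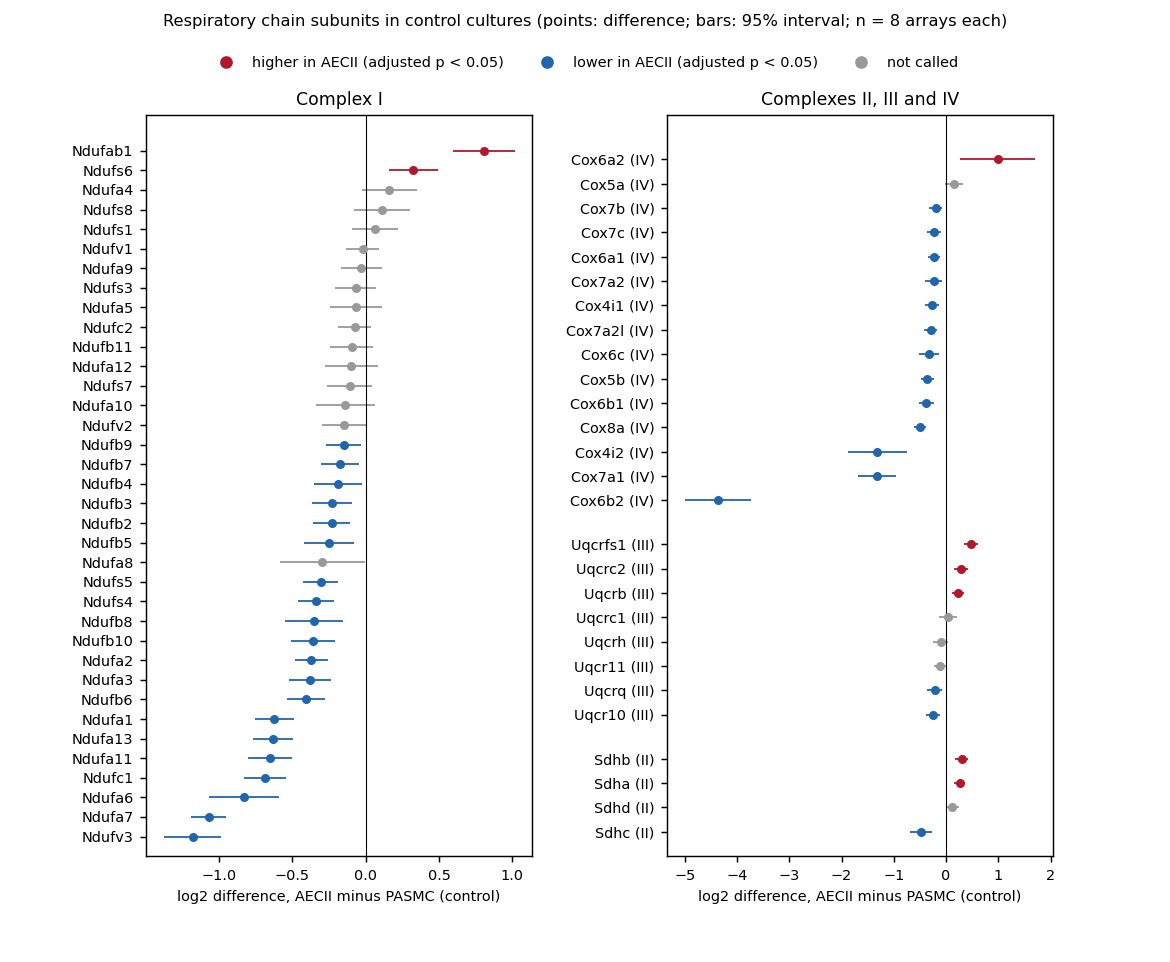
Difference between control AECII and control PASMC for each tested subunit, on a log2 scale, with complex I on the left and complexes II to IV on the right; points are differences of 8 against 8 arrays, bars are 95% intervals and colour marks the call. Complex I and complex IV points lie mostly left of 0, while complexes II and III have called members on either side.

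Complex I takes electrons from NADH. Of its 36 subunits, 20 were lower in AECII, 2 were higher and 14 were not called, with a median difference of −0.21. The core subunits, which carry the flavin and the iron-sulphur clusters, and the accessory subunits around them had different counts. None of the 6 core subunits among the members (Ndufs1, Ndufs3, Ndufs7, Ndufs8, Ndufv1 and Ndufv2) was called by limma, and 0 of the 6 had an unadjusted p under 0.05. Their differences ran from −0.15 in Ndufv2, which had the smallest adjusted p of 0.0860, to 0.11 in Ndufs8. All 6 had 95% intervals within a 1.5-fold change in either direction. Of the 30 accessory subunits, 20 were lower, 2 were higher and 8 were not called, with a median of −0.27. The difference between core and accessory subunits was not itself tested.

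Ndufv1, the core subunit that binds NADH and the flavin, measured 12.05, 12.23 and 12.37 (lowest, median and highest) in control AECII and 12.08, 12.25 and 12.36 in control PASMC. The groups overlapped nearly throughout, and the difference was −0.02 ± 0.055 (SE, n = 8 per group, limma adjusted p = 0.768). Ndufs1, the largest iron-sulphur subunit, measured 11.13, 11.22 and 11.43 in AECII and 11.06, 11.16 and 11.34 in PASMC, again overlapping.

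Ndufv3, a small accessory subunit near the flavoprotein, had the widest difference in complex I. Its control values were 11.57, 11.68 and 11.93 in AECII and 12.48, 12.93 and 13.20 in PASMC. Every AECII array lay below every PASMC array, and the difference was −1.18 ± 0.097 (SE, limma adjusted p = 1.64e-14), a 2.27-fold lower level in AECII. The gene has a pair of array features, which gave −1.18 and −1.28. Ndufa7, another accessory subunit, measured 11.71, 11.85 and 12.02 in AECII against 12.72, 12.94 and 13.09 in PASMC. These groups were also apart, by −1.07 ± 0.059 (limma adjusted p = 2.37e-20).

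Ndufa6, an accessory subunit of the LYR-motif family, measured 10.28, 10.38 and 10.61 in AECII and 10.86, 11.22 and 11.65 in PASMC, with no overlap and a difference of −0.83 ± 0.12 (limma adjusted p = 4.39e-08). Accessory subunits of the membrane arm followed at smaller sizes. Ndufc1 differed by −0.69, Ndufa11 by −0.65, Ndufa13 (also known as GRIM-19, a cell death regulator) by −0.63 and Ndufa1 by −0.62, and in each of these the groups did not overlap. The other called lower subunits of complex I lay between −0.41 in Ndufb6 and −0.15 in Ndufb9.

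The 2 complex I subunits higher in AECII were Ndufab1 and Ndufs6. Ndufab1 is the mitochondrial acyl carrier protein, which also serves fatty acid and lipoic acid synthesis. It measured 8.47, 8.84 and 9.04 in AECII and 7.59, 8.11 and 8.47 in PASMC, so that the lowest AECII array met the highest PASMC array. The difference was 0.80 ± 0.10 (SE, limma adjusted p = 5.96e-09), or 1.75-fold. Ndufs6, a zinc-binding accessory subunit, differed by 0.32 ± 0.084 (limma adjusted p = 8.52e-04) with overlapping groups. Ndufa4, named as a complex I subunit but found with complex IV, was 0.16 higher in AECII without passing the test (limma adjusted p = 0.139). Following its symbol, Ndufa4 is counted here with the accessory subunits of complex I and not with complex IV.

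Complex II, succinate dehydrogenase, belongs to the citrate cycle as well as the respiratory chain. Its catalytic subunits were higher in AECII and a membrane anchor was lower. Sdha, the flavoprotein, measured 11.14, 11.35 and 11.46 in control AECII and 10.92, 11.07 and 11.18 in control PASMC, with slight overlap and a difference of 0.26 ± 0.054 (SE, limma adjusted p = 5.22e-05). Sdhb, the iron-sulphur subunit, measured 12.58, 12.70 and 12.79 against 12.32, 12.39 and 12.56. The Sdhb groups did not overlap, and the difference was 0.30 ± 0.059 (limma adjusted p = 2.71e-05).

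Sdhc, a membrane anchor that carries heme with Sdhd, measured 10.09, 10.30 and 10.50 in AECII and 10.25, 10.86 and 10.96 in PASMC. Its groups overlapped through the lowest PASMC array, and the difference was −0.48 ± 0.11 (limma adjusted p = 1.14e-04). Sdhd, the other anchor, differed by 0.12 ± 0.063 and was not called (limma adjusted p = 0.0883). It was called after either rescaling of the arrays, at 0.15 (limma adjusted p = 0.0437) with arrays centred on their median and 0.17 (limma adjusted p = 0.0249) with quantile normalisation repeated. It was also called without AECII control replicate 2, at 0.15 (limma adjusted p = 0.0471).

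Complex III passes electrons from ubiquinol to cytochrome c. Of its 8 subunits, 3 were higher in AECII, 2 were lower and 3 were not called. Uqcrfs1, the Rieske iron-sulphur protein, measured 11.30, 11.42 and 11.64 in AECII and 10.80, 10.96 and 11.13 in PASMC. All AECII arrays lay above all PASMC arrays, by 0.48 ± 0.066 (SE, limma adjusted p = 2.73e-08), or 1.39-fold. The core protein Uqcrc2 was 0.29 ± 0.065 higher (limma adjusted p = 1.70e-04) and Uqcrb 0.23 ± 0.059 higher (limma adjusted p = 9.65e-04). Uqcrc2 is printed on the array as 10 features, which all gave AECII higher, by 0.23 to 0.35. The small subunits Uqcr10 and Uqcrq were lower in AECII, by −0.24 and −0.22. Uqcrc1, the other core protein, differed by 0.04 and was not called (limma adjusted p = 0.708).

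Complex IV, cytochrome c oxidase, reduces oxygen. Of its 15 tested subunits, 13 were lower in AECII, Cox6a2 was higher and Cox5a was not called (0.15, limma adjusted p = 0.138). The members fall into broadly made subunits and 4 restricted isoforms, Cox4i2, Cox6a2, Cox6b2 and Cox7a1, that replace a broad form in particular tissues. Among the broad subunits the differences were small and mostly in 1 direction. Cox8a measured 13.47, 13.64 and 13.75 in AECII and 14.01, 14.13 and 14.25 in PASMC, with no overlap and a difference of −0.51 ± 0.057 (SE, limma adjusted p = 1.31e-10). Cox6b1 differed by −0.38, Cox5b by −0.36, Cox6c by −0.33, Cox7a2l by −0.30, Cox4i1 by −0.27, Cox7a2 by −0.24, Cox6a1 by −0.23, Cox7c by −0.22 and Cox7b by −0.20. Cox7a2l, which helps join complexes III and IV into supercomplexes, was apart in the control groups, as was Cox6b1. Without the PASMC arrays with Sftpc above 6, Cox7a2 was no longer called, at −0.19 (limma adjusted p = 0.108).

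The restricted isoforms differed far more. Cox6b2, best known as the testis form of the subunit that bridges the enzyme's dimer, measured 2.73, 4.02 and 4.24 in control AECII and 7.05, 8.34 and 8.76 in control PASMC. The AECII arrays were near the array median, whereas every PASMC array was well above it, and the difference was −4.36 ± 0.32 (SE, limma adjusted p = 2.30e-16). The fitted ratio of 20.6-fold rests on a dim AECII signal. Cox7a1, the heart and skeletal muscle form of its subunit, measured 4.25, 4.95 and 5.60 against 5.80, 6.31 and 6.61. Its groups did not overlap, and AECII was lower by −1.32 ± 0.18 (limma adjusted p = 2.05e-08), or 2.50-fold.

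Cox4i2, the oxygen-responsive form of Cox4 that is known from lung and smooth muscle, measured 3.06, 4.35 and 4.78 in AECII and 4.34, 5.59 and 6.36 in PASMC. The groups overlapped, and the difference was −1.31 ± 0.28 (limma adjusted p = 8.26e-05). Cox6a2, the striated muscle form, went the other way: it measured 4.86, 6.76 and 7.89 in AECII and 4.55, 5.90 and 6.53 in PASMC. These groups overlapped widely, with SDs of 0.96 and 0.71, and the difference was 0.99 ± 0.36 (limma adjusted p = 0.0149). Of 5 striated muscle markers tested, Myh7 and Tnnt2 were higher in AECII, Acta1 and Tnni3 were lower and Myl2 was not called. Tnni3 averaged below the filter in AECII and passed it through PASMC arrays, so its call adds no support. In control AECII, 5 of the 8 listed markers had means under 4. A part of striated muscle cells in the Cox6a2 values was not tested.

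**Figure D2:**
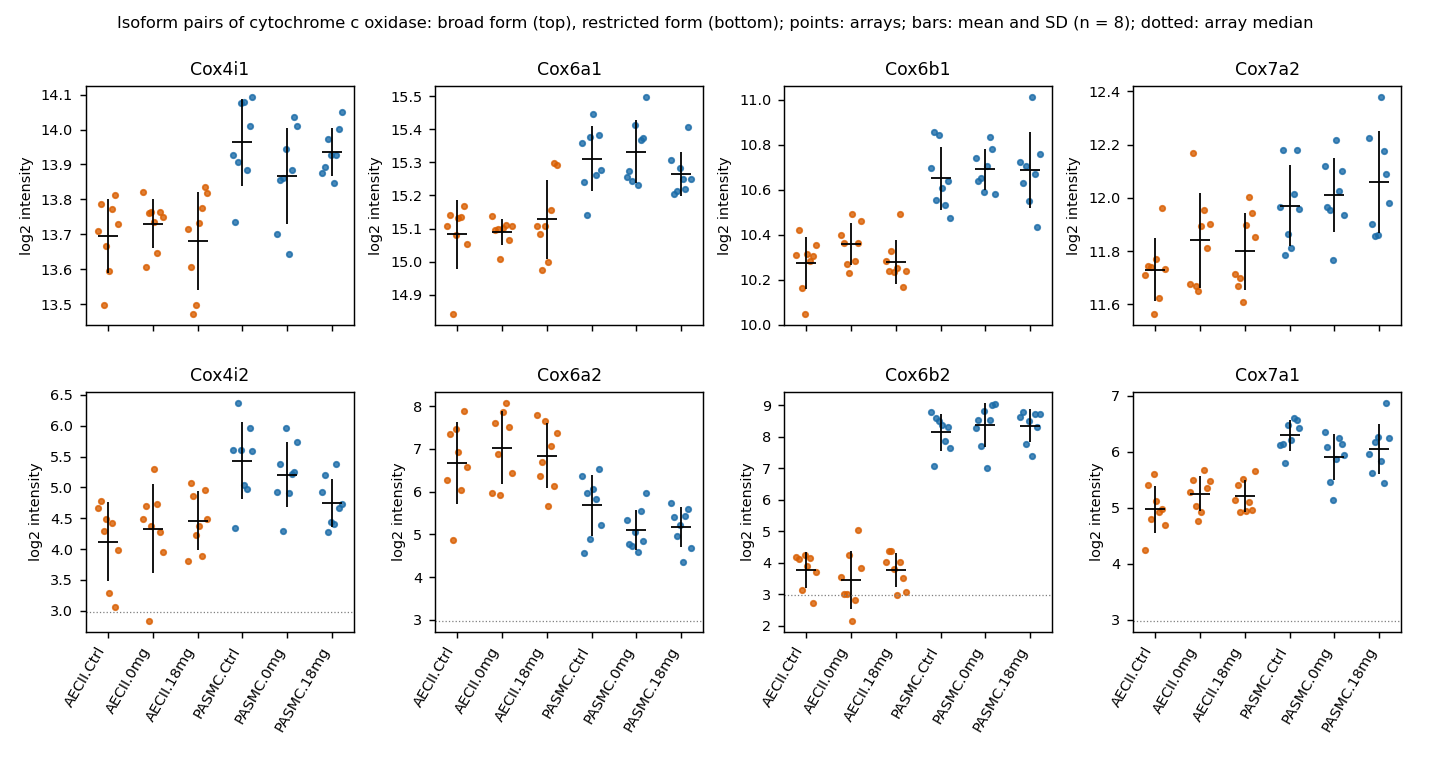
Log2 intensity of Cox4, Cox6a, Cox6b and Cox7a isoforms in each of the 48 arrays, broad forms in the upper row and restricted forms in the lower row; points are arrays, bars are mean and SD of 8, orange is AECII, blue is PASMC, and each panel has its own vertical scale. AECII minus PASMC at control is −4.36 for Cox6b2 and −0.38 for the broad Cox6b1.

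The remaining 3 isoforms, Cox7b2, Cox8b and Cox8c, known from testis or striated muscle, did not pass the filter. Their group means lay between 2.19 and 2.64 in all 6 groups, below the array median, so no comparison was made for them.

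Of the 3 genes with matching names that are not subunits, Sdhaf1 was lower in AECII by −0.86 ± 0.11 (SE, limma adjusted p = 8.27e-09) with groups that did not overlap. Sdhaf2 was lower by −0.36 (limma adjusted p = 0.00669), and Emc8, part of a membrane protein insertion complex, was higher by 0.31 (limma adjusted p = 0.0233).

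Several features per gene were available for 19 subunits, and 17 of these gave AECII minus PASMC the same sign in every feature. The exceptions were Ndufb5, at −0.25 in the brightest feature and 0.33 in a dimmer one, and Cox7c, at −0.22 in the brightest and 0.26 in a feature averaging 2.83, which is below the array median. The calls of Ndufb5 and Cox7c thus rest on the brightest feature.

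Averaged over its tested subunits, complex I stood at 11.55 ± 0.066 (SD, n = 8) in control AECII and 11.81 ± 0.065 in control PASMC, and the arrays did not overlap. The 11 broad complex IV subunits averaged 12.63 ± 0.068 and 12.89 ± 0.046, likewise apart. Complex II averaged 11.59 ± 0.064 and 11.54 ± 0.059, and complex III 12.07 ± 0.073 and 12.02 ± 0.049, with overlapping arrays in each. The cell-type differences persisted in sign after exposure: all 44 subunits called at control kept their sign in the group means of both extract conditions, and the median difference over 63 subunits was −0.22 at control, −0.20 with nicotine-free extract and −0.20 with nicotine-containing extract. The 44 were picked by their control difference, and the share keeping its sign among all called genes was not counted. For the restricted isoforms the size of the difference varied between conditions, but no change from control was called by limma. Their spread between arrays was wide, with control SDs for Cox6a2 of 0.96 in AECII and 0.71 in PASMC. In the order control, nicotine-free and nicotine-containing extract, Cox4i2 stood at −1.31, −0.88 and −0.29 and Cox7a1 at −1.32, −0.65 and −0.85. Cox6a2 stood at 0.99, 1.92 and 1.67 and Cox6b2 at −4.36, −4.91 and −4.57.

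**Figure D3:**
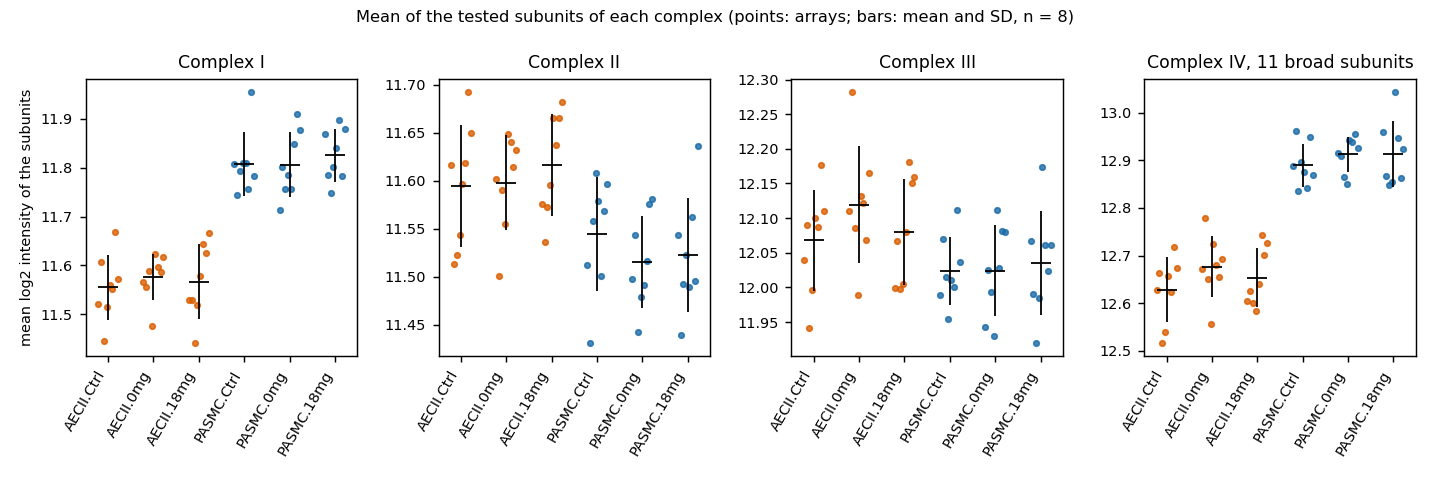
Mean log2 intensity of the tested subunits of complexes I, II, III and of the 11 broad subunits of complex IV in each array, by group; points are arrays, bars are mean and SD of 8, orange is AECII and blue is PASMC, and each panel has its own vertical scale. The cell types are apart in complex I and in the broad subunits of complex IV, and the 3 conditions of a cell type overlap in every panel.

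Vapour extract was then compared with control within each cell type. No subunit passed the limma test in any of the 6 extract comparisons. The background was as bare: 0 of 14477 genes (0%) were called in each AECII comparison, 0 of 14545 (0%) in PASMC with nicotine-free extract against control and with the extracts against each other, and 4 (0.0275%), all lower, in PASMC with nicotine-containing extract. Comparisons with the same control arrays, or with the same extract arrays, are not independent, so their values are given side by side.

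In AECII with nicotine-free extract, 0 of 63 subunits were called by limma and 1 had an unadjusted p under 0.05. The signs were 49 positive and 14 negative, with a median of 0.03 beside 0.01 over all genes, a range from −0.32 to 0.36 and a smallest adjusted p of 0.999. With nicotine-containing extract, 0 were called, 0 had an unadjusted p under 0.05, 46 were positive and 17 negative, and the median was 0.02 beside 0.01 over all genes. The 95% intervals lay within a 1.5-fold change for 59 and 60 of the 63 subunits respectively. All subunits are read on the same arrays, so sign counts here and in PASMC are not of independent values and were not tested. Averaged over the 63 subunits, AECII arrays stood at 11.39 ± 0.069 (SD, n = 8) at control. The averages were 11.42 ± 0.053 with nicotine-free and 11.41 ± 0.061 with nicotine-containing extract. With nicotine-containing against nicotine-free extract, 0 were called by limma, 0 had an unadjusted p under 0.05, and the median was −0.01.

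Uqcr10, a small complex III subunit, had the smallest unadjusted p among subunits in AECII. It measured 11.68, 11.75 and 11.98 at control and 11.79, 11.96 and 12.12 with nicotine-free extract. All 8 extract arrays lay above the control mean while the ranges overlapped, and the difference of 0.16 ± 0.068 (SE, unadjusted p = 0.0294, limma adjusted p = 0.999) did not pass. With nicotine-containing extract Ndufs4, an accessory subunit of complex I, came first at −0.10 ± 0.062 (unadjusted p = 0.117 in the limma fit), with 8 of 8 arrays below the control mean. Between the extracts it was Ndufa10, another accessory subunit, at 0.24 ± 0.12 (unadjusted p = 0.0529 in the limma fit), where the lowest nicotine-free array stood at 9.08 and the others of that group between 9.90 and 10.23. Without that array, replicate 2, the Ndufa10 difference was 0.11.

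In PASMC with nicotine-free extract, 0 of 63 subunits were called by limma and 3 had an unadjusted p under 0.05. The signs were 34 positive and 29 negative, and the median was 0.004 beside 0.004 over all genes. With nicotine-containing extract, 0 were called, 2 had an unadjusted p under 0.05, 38 were positive and 25 negative, and the median was 0.02 beside 0.01 over all genes. Intervals lay within a 1.5-fold change for 59 of 63 subunits in either comparison. Between the extracts, 0 were called by limma and 1, Ndufab1, had an unadjusted p under 0.05 (0.25 ± 0.11, unadjusted p = 0.0346).

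Restricted complex IV isoforms accounted for the lowest estimates in PASMC, none of which passed the adjusted test. Cox4i2 measured 4.34, 5.59 and 6.36 at control, 4.29, 5.23 and 5.97 with nicotine-free extract and 4.28, 4.70 and 5.38 with nicotine-containing extract. The groups overlapped, although all 8 nicotine-containing arrays lay below the control mean. The differences from control were −0.23 ± 0.25 (SE, unadjusted p = 0.379) and −0.68 ± 0.25 (unadjusted p = 0.0127, limma adjusted p = 1.00).

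Cox6a2 measured 4.59, 4.96 and 5.96 with nicotine-free extract and 4.35, 5.30 and 5.72 with nicotine-containing extract in PASMC, overlapping its control range of 4.55 to 6.53. In each extract group 7 of 8 arrays lay below the control mean, and the differences were −0.57 ± 0.27 (SE, unadjusted p = 0.0465 in the limma fit) and −0.51 ± 0.27 (unadjusted p = 0.0733). Cox7a1 measured 5.13, 6.01 and 6.35 and 5.45, 6.06 and 6.87, against 5.80, 6.31 and 6.61 at control. Again 7 of 8 arrays of each extract group lay below the control mean, with differences of −0.39 ± 0.19 (unadjusted p = 0.0490 in the limma fit) and −0.24 ± 0.19 (unadjusted p = 0.211). Cox6b2 had positive estimates, 0.23 ± 0.29 and 0.21 ± 0.29, and 6 of 8 arrays above the control mean in each group.

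Ndufc2, a complex I accessory subunit, measured 12.40, 12.46 and 12.72 in control PASMC, 12.16, 12.32 and 12.47 with nicotine-free extract and 12.25, 12.31 and 12.55 with nicotine-containing extract. Ranges overlapped, with 8 and 7 of 8 extract arrays below the control mean. The differences of −0.17 ± 0.067 (SE, unadjusted p = 0.0201 in the limma fit) and −0.15 ± 0.067 (unadjusted p = 0.0330) did not pass adjustment over all genes (limma adjusted p = 1.00 in either).

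**Figure D4:**
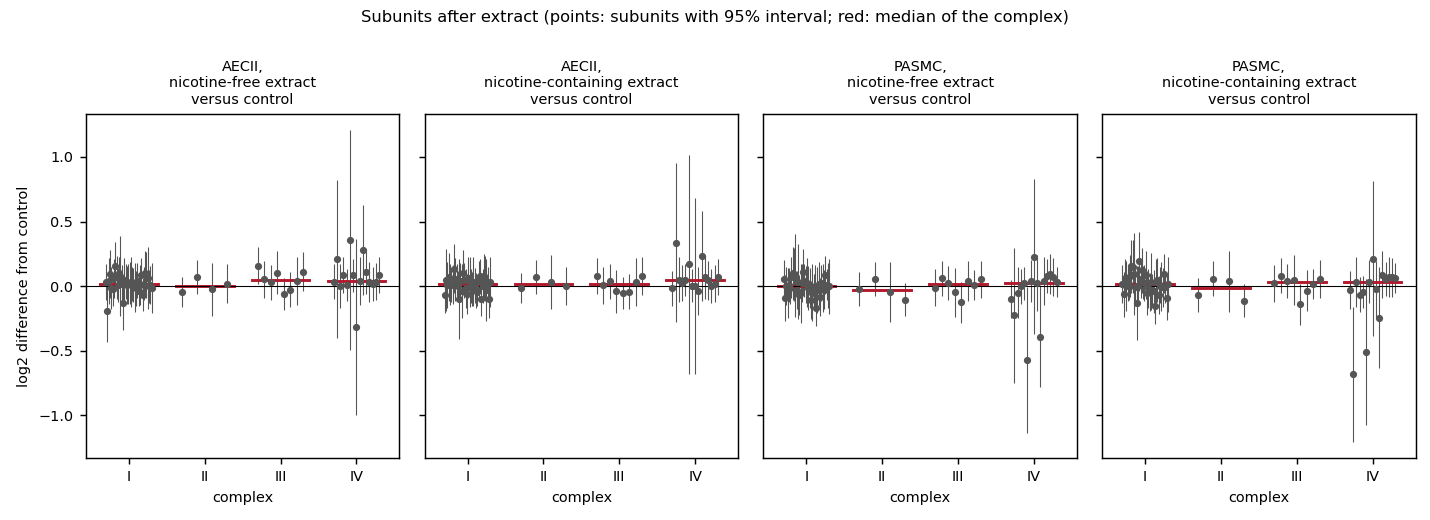
Log2 difference of each tested subunit from control in the 4 extract groups, arranged by complex; points are subunits, vertical bars are 95% intervals from 8 against 8 arrays, and red lines are medians of a complex. Points gather around 0, and the restricted complex IV isoforms carry the wide intervals and the lowest PASMC values, −0.57 for Cox6a2 and −0.68 for Cox4i2.

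The extract response was also compared between the cell types, as the AECII difference minus the PASMC difference. Over 14775 genes 0 (0%) were called for either extract, and 0 of the 63 subunits were called by limma, with 1 under an unadjusted p of 0.05 in each. For nicotine-free extract that subunit was Cox7a1, at 0.67 ± 0.26 (SE, unadjusted p = 0.0117, limma adjusted p = 1.00). For nicotine-containing extract it was Cox4i2, at 1.02 ± 0.40 (unadjusted p = 0.0138, limma adjusted p = 1.00). Median differences over the subunits were 0.02 and 0.01, beside 0.005 and 0.004 over all genes.

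Other genes of mitochondrial respiration were read from lists. ATP synthase genes, which use the proton gradient, had 7 of 17 lower in AECII at control and 2 higher: the inhibitory factor Atpif1 differed by −0.47 and Atp5d by −0.37, whereas the catalytic subunit Atp5a1 was 0.31 higher and Atp5g3 0.27 higher. Assembly factors of complexes I to IV had 13 of 39 lower and 5 higher, with Surf1, an assembly factor of complex IV, at −1.02, the complex III factor Uqcc3 at −0.99 and the complex IV copper chaperone Cox11 at 1.20. Citrate cycle enzymes had 8 of 16 higher and 1 lower, with Ogdh at 0.62, Idh2 at 0.50 and Cs, citrate synthase, at 0.33. These shares stand beside the 27.9% higher and 31.3% lower over all genes.

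Regulators of mitochondrial biogenesis had 9 of 25 higher in AECII and 4 lower. Ppargc1a, the coactivator PGC-1 alpha, was 1.34 ± 0.28 higher (SE, limma adjusted p = 6.24e-05), Pparg 3.14 higher and Tfam, the mitochondrial DNA packaging factor, 0.32 higher. Esrra, a nuclear receptor that binds respiratory genes, was lower by −0.58, and Nrf1, with 0.24 (limma adjusted p = 0.0924), and Gabpa, with −0.22 (limma adjusted p = 0.250), were not called. Electron carriers, exchangers and antioxidant genes had 4 of 15 higher and 4 lower, among them the uncoupling protein Ucp2 at 3.40 and the peroxidase Prdx5 at −2.01. Over all genes 27.9% were higher and 31.3% lower, and the counts of this last list lay near those shares.

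Hypoxia-responsive mitochondrial genes had 6 of 7 lower in AECII and 0 higher, beside 31.3% lower and 27.9% higher over all genes. Ndufa4l2, counted among the 6, passed the filter through its high PASMC arrays, so its call adds no support. Ndufa4l2, a paralogue of Ndufa4 that hypoxia induces, measured 2.04, 2.23 and 3.21 in control AECII and 6.96, 10.83 and 12.24 in control PASMC. The groups did not overlap, and since the AECII arrays were at the level of dim features, below the filter on average, the size of the difference is not given. Pdk1, which restrains pyruvate entry into mitochondria, differed by −2.70 and the mitophagy receptor Bnip3 by −2.58. Higd1a, which was not called, is counted here and among the assembly factors. No gene of these lists was called by limma in any extract comparison or difference of responses, and 0 to 2 genes of a list had an unadjusted p under 0.05 in each.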

How the data were processed

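Total RNA labelled with Cy3 was hybridised to 48 single-colour arrays, 1 per sample. The authors deposited log2 values for 62976 features, whose quantiles match across arrays; the submitters' processing notes name limma, and its version and step are not given in the sources used here. The platform annotation named 31465 features, updated through RefSeq accessions (29036) or symbols (2429), and 31511 stayed unnamed. The brightest feature represented a gene, and genes with a mean above the 30th percentile of named features (2.73) were tested. Differences were fitted with limma 3.58.1 in R 4.3.3, with 1 coefficient per group: over all 48 arrays for comparisons between cell types and over the 24 arrays of a cell type for extract comparisons, two-sided, with Benjamini-Hochberg adjustment over all genes tested. In simulated data 100 genes were changed by 0.5 and 100 by 1, drawn from all genes tested and not from the subunits. The control fit recovered 36 and 66 of them. Fits of nicotine-containing extract against control recovered 42 and 64 in AECII and 32 and 68 in PASMC. Among genes left unchanged, 14 were falsely called in the control fit and 4 in each of the extract fits. Few genes were changed in the simulation, while 59.2% were called at control, so it does not give the recovery of the real control comparison. Named genes are, for each complex at control, up to 3 called subunits with the largest difference in each direction, all complex II subunits, complex IV isoforms, and the 3 subunits with the smallest p in each extract comparison; others named were chosen after their values were seen. Members, lists and tests were chosen with earlier results of these data known. The number of arrays limits precision. Mitochondrially encoded subunits were not analysed here.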

Additional observations from a re-analysis of the deposited data

Results flagged for a closer look

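In 222 sets of 8 arrays, made of 33 subunits and 4 complex means in the 6 groups, 17 had an array far from the other 7, judged by the gap to the nearest array against the range of the set. Chance alone gives about 1 in 20. In AECII controls, replicate 3 was low for Cox6a1 at 14.84 (others 15.05 to 15.17), for Ndufab1 at 8.47 (others 8.78 to 9.04) and for the complex IV mean at 10.32 (others 10.55 to 10.73), and replicate 8 was low for Ndufa8 at 9.27 (others 9.79 to 10.16). The complex IV mean includes the 4 restricted isoforms. Replicate 3 lay −0.11 from the AECII control mean over the 11 broad subunits and −0.62 over the restricted isoforms. In PASMC controls, replicate 7 was high for Uqcrb at 12.42 (others 12.07 to 12.18), for Uqcrq at 13.74 (others 13.47 to 13.59) and for the complex I mean at 11.96 (others 11.74 to 11.81). Replicate 2 of that group was high for Cox7a2l at 12.87 (others 12.59 to 12.71), and replicate 8 was low for Ndufs4 at 11.10 (others 11.31 to 11.46).

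Among AECII with nicotine-free extract, replicate 2 was low for Ndufa10 at 9.08 (others 9.90 to 10.23) and for Sdhd at 11.73 (others 12.01 to 12.24), and replicate 4 was low for the complex I mean at 11.48 (others 11.56 to 11.62). With nicotine-containing extract, AECII replicate 8 was high for Ndufa7 at 12.04 (others 11.77 to 11.90) and replicate 5 was low for the complex IV mean at 10.47 (others 10.62 to 10.70). That replicate 5 lay 0.01 above the AECII control mean over the broad complex IV subunits and −0.39 from it over the restricted isoforms. In PASMC with nicotine-free extract, replicate 3 was low for Cox8a at 14.05 (others 14.15 to 14.22) and replicate 5 was high for Uqcrfs1 at 11.34 (others 10.88 to 11.06). PASMC replicate 6 with nicotine-containing extract was low for Ndufa10 at 9.80 (others 10.14 to 10.44).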

How the results depend on the processing

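The alternatives were another or no filter on low values, arrays centred on their median, quantile normalisation repeated, eBayes with trend and robust fitting, the mean of all features of a gene, the compared arrays alone, the replicate number as a block, PASMC arrays with Sftpc above 6 left out, and, added after seeing the data, each array left out in turn and a separate count of core and accessory complex I subunits. At control, 33 to 37 subunits were lower in AECII and 8 to 10 higher, and 0 core subunits of complex I were called under every alternative; leaving out single arrays gave 34 to 36 and 8 to 9. No subunit was called in any extract comparison under any alternative. No direction of a named difference reversed. The calls of Sdhd and Cox7a2 at control changed as stated with their values. Without the PASMC arrays with Sftpc above 6, the median subunit difference in PASMC with nicotine-containing extract moved from 0.017 to 0.074, beside a median of 0.027 over all genes; the cause was not tested. Over all genes, the 4 calls in PASMC with nicotine-containing extract became 0 with the replicate block, with the compared arrays alone or without the arrays with Sftpc above 6, 1 with no filter or with the mean of all features, 6 with robust fitting and 8 with the filter at the 50th percentile. The replicate block gave 37 lower and 8 higher at control and changed no call of a named subunit. Correlations of same-numbered arrays ran from −0.21 to 0.28 in AECII and −0.40 to 0.62 in PASMC, with medians of 0.04 and 0.03. Of 24 correlations in each cell type, 5 in AECII and 9 in PASMC were over 0.1. These values do not settle whether the numbers pair the arrays. If groups share animals, the unpaired fits leave differences between animals in their error. Signal near the array median limits Cox6b2 and Cox4i2 in AECII, and Cox7b2, Cox8b and Cox8c everywhere.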
